A study of Rattus norvegicus with 12 samples.

Results

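The elastic fibre and fibrillin genes examined here were the 10 listed genes Eln, Fbn1, Fbn2, Mfap5, Fbln1, Fbln2, Fbln5, Efemp1, Efemp2 and Emilin1, picked by symbol from a table of 12271 genes. Of the 10, 9 were in the table and all 9 reached the minimum for testing, a mean of 10 normalized counts, as did 11871 genes in total. Fbln2 was not analysed here. Expression was measured by RNA sequencing in 12 libraries of cultured cardiac fibroblasts from Sprague Dawley rats at postnatal day 2, 3 libraries in each of 4 groups. The cells received universal negative control siRNA, Yap siRNA, Wwtr1 siRNA, or siRNA against both genes (double knockdown); small interfering RNA lowers the messenger RNA it matches. Against a target gene, 2 different siRNAs were used, each at 25 nM, and the labels place RNA collection 48 h after transfection, whereas the study's methods count those 48 h from a later change of medium. These were primary cells isolated from heart ventricles and transfected in culture, and the knockdowns were partial. For the double knockdown the siRNA label lists just the siRNAs to Wwtr1, so the group was read from the sample title, and the design text speaks of cardiac myocytes where the title and labels speak of fibroblasts.

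Elastic fibres give stretchable tissues their recoil. Their core is crosslinked elastin (Eln), which is laid down on a scaffold of microfibrils built from fibrillins (Fbn1, Fbn2) and decorated by microfibril-associated glycoproteins such as Mfap5. Fibulins (Fbln1, Fbln5, Efemp1, Efemp2) and the glycoprotein Emilin1 join elastin, microfibrils, crosslinking enzymes and cells, and in the heart these proteins belong to the matrix that fibroblasts secrete. Yap and Wwtr1 (also called TAZ) are transcriptional co-activators that act largely through TEAD transcription factors.

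Library totals were 33.9 to 41.1 M recovered reads, and every siRNA lowered its target. Yap1, which encodes Yap, had 3042, 3776 and 2984 normalized counts under negative siRNA, 532, 576 and 625 under Yap siRNA and 713, 739 and 1474 under both. Wwtr1 had 2364, 2565 and 2280 under negative siRNA, 524, 550 and 637 under its own siRNA and 818, 731 and 1056 under both. Double knockdown replicate 3 stood apart: it kept the highest Yap1 and Wwtr1 of its group, and its counts differed from both other double knockdown libraries with a chi-square per gene of 122 and 126, whereas the other pairs of replicates, in all groups, reached at most 50.7. Its summed level of 10 macrophage markers was 29185 normalized counts, against 4500 and 8560 in the other double knockdown libraries. These markers summed to 13132 to 18949 under negative siRNA, 11288 to 17253 under Yap siRNA and 7767 to 11716 under Wwtr1 siRNA. The macrophage marker Cx3cr1 was listed at 0 in at least 1 library. As a background for marker counts, 32.8% of all genes were called in the double knockdown against negative siRNA, 17.1% higher and 15.6% lower. Without replicate 3, 9 of the 10 macrophage markers were called lower in the double knockdown than with negative siRNA, against 1 with it. The 12 cardiac fibroblast markers were above 0 in every library. They summed to 3049389 to 3542274 under negative siRNA and 3748778 to 3902732 under Yap siRNA. Their sums were 3049608 to 3280958 under Wwtr1 siRNA and 2772298 to 3961224 in the double knockdown. In the double knockdown Postn, Lum, Pdgfra and Dcn were called higher and Col1a2, Tcf21 and Vim lower. The 10 cardiomyocyte markers summed to 42417 to 74282 under negative siRNA, 49853 to 82761 under Yap siRNA, 45398 to 83857 under Wwtr1 siRNA and 71009 to 92970 in the double knockdown, where Myh6, Tnni3 and Myl2 were called higher (1 of the 10 without replicate 3). The 12 smooth muscle and pericyte markers summed to 438972 to 582721 under negative siRNA, 290125 to 383409 under Yap siRNA, 374849 to 499057 under Wwtr1 siRNA and 161345 to 305960 in the double knockdown, where 3 were called higher and 3 lower. The 6 mesothelial markers in the table summed to 1182 to 1798 under negative siRNA, 1376 to 2212 under Yap siRNA, 1282 to 1679 under Wwtr1 siRNA and 1669 to 2175 in the double knockdown. Of these, Upk1b was called higher with Yap siRNA (2.47-fold) and in the double knockdown (5.60-fold), Msln was called lower in the double knockdown (3.07-fold), and Krt18 and Krt19 were listed at 0 in at least 1 library. Among the 14 interferon-induced genes in the table, all were higher in the Yap siRNA and double knockdown groups and 13 in the Wwtr1 siRNA group. Their summed level was 6368 to 11320 under negative siRNA, 28147 to 78289 under Yap siRNA, 23337 to 101848 under Wwtr1 siRNA and 110531 to 143958 in the double knockdown. The part of these differences in the results below was not tested. In such bulk samples, fewer cells of a type and less RNA per cell cannot be told apart.

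The first question was how depletion of Yap, Wwtr1 or both changed the elastic fibre genes relative to negative siRNA. In the double knockdown, 5 of the 9 genes passed the test, against 32.8% of all genes tested. Efemp1, Fbln1, Emilin1 and Fbn2 rose (17.1% of all genes were called higher) and Fbln5 fell (15.6% were called lower). In each of these 5 the double knockdown libraries lay wholly outside the range of the negative siRNA libraries, which held for 44.6% of all genes. With Yap siRNA only Efemp1 passed (4.80% of all genes did), and with Wwtr1 siRNA only Fbn2 passed (8.96% of all genes). A fit of the negative, Yap and Wwtr1 siRNA groups alone with replicate number as a block, called the blocked fit here, was chosen after seeing the data. It differs from the fit of all 12 libraries in both the block and the libraries, so the same 9 libraries were also fitted without the block. With Yap siRNA, 6 members passed in the blocked fit (16.0% of all genes did) and 2 in the same libraries without the block (5.69%). With Wwtr1 siRNA, 3 passed in the blocked fit (21.3% of all genes) and 1 without the block (11.1%). Between Yap and Wwtr1 siRNA the blocked fit called Fbn2 and Fbln5 lower with Yap siRNA and Fbln1 and Emilin1 higher (22.6% of all genes), whereas the same libraries without the block called Fbn2 and Emilin1 (11.1%). Between Yap and negative siRNA the libraries of 4 members did not overlap (26.1% of all genes), between Wwtr1 and negative siRNA those of 3 (32.7%), between Yap and Wwtr1 siRNA those of 4 (31.9%), between the double knockdown and Yap siRNA those of 3 (30.5%) and between the double knockdown and Wwtr1 siRNA those of 7 (37.3%). The test throughout was limma with Benjamini-Hochberg adjustment over all 11871 genes at an adjusted p of 0.05, and "called" means that a gene passed it. Log2 fold changes are differences of log2(normalized count + 1), a scale that compresses the changes of weakly expressed genes. The median log2 fold change of the 9 genes was -0.09 in the double knockdown, beside 0.0035 over all genes. Without double knockdown replicate 3, 6 of the 9 were called, with Eln as the addition, and their median was -0.06.

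**Figure D1:**
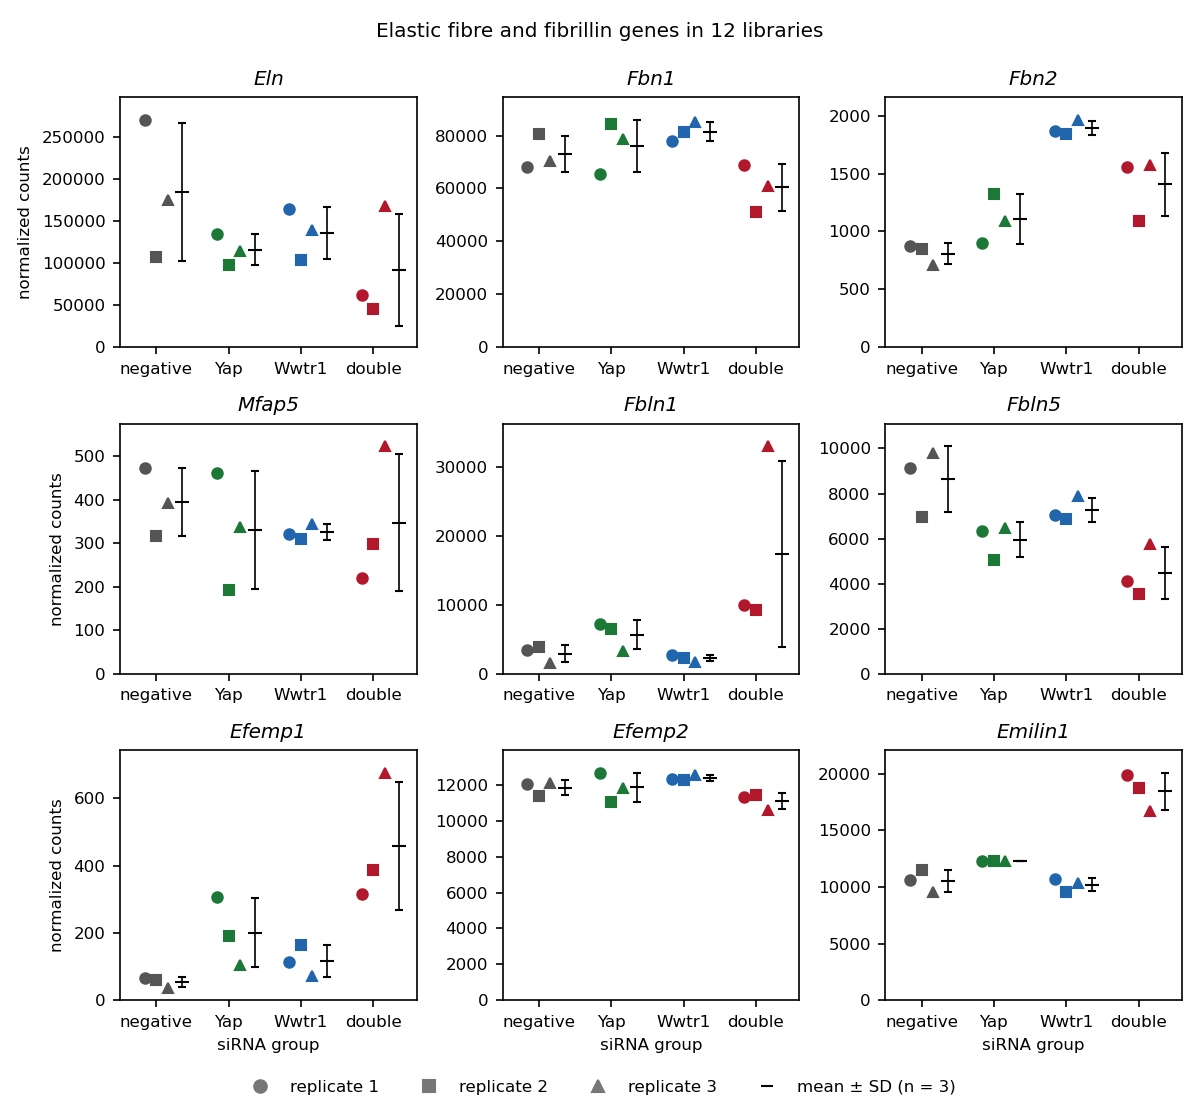
Normalized counts (vertical axes, from 0) of the 9 elastic fibre and fibrillin genes in the 4 siRNA groups. Each symbol is 1 library, with the symbol shape giving the replicate number, and the black bar gives the mean ± SD of 3 libraries. Emilin1 and Efemp1 are higher and Fbln5 lower in all 3 double knockdown libraries than in any negative siRNA library, whereas the Eln libraries overlap.

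**Figure D2:**
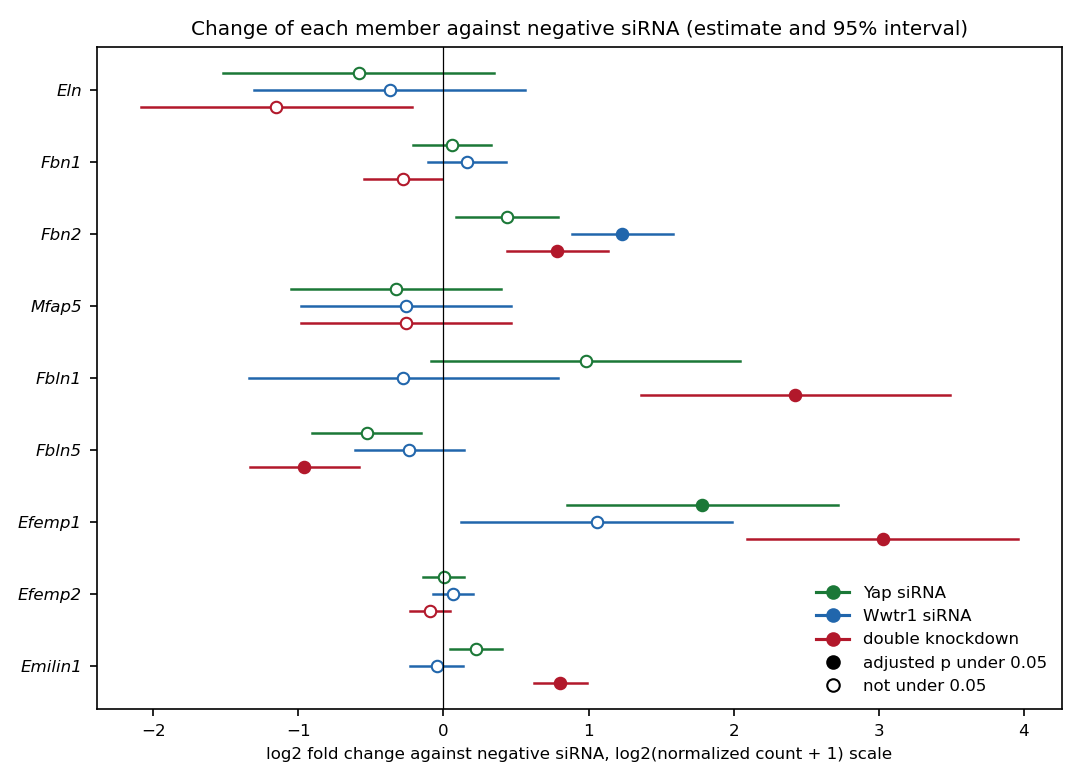
Log2 fold change of each gene against negative siRNA (horizontal axis) with its 95% interval, for Yap siRNA, Wwtr1 siRNA and the double knockdown. Filled symbols mark an adjusted p under 0.05 and open symbols the rest. In the double knockdown, 4 filled symbols lie to the right of 0 and 1, Fbln5, to the left.

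Eln encodes tropoelastin, the soluble precursor of the elastic core. It had 270336, 107756 and 175450 normalized counts in the 3 negative siRNA libraries, and 61884, 44831 and 167436 in the double knockdown. Replicates 1 and 2 of the double knockdown were therefore below every negative siRNA library, while replicate 3 was within their range. The mean was 184514 ± 81668 (SD, n = 3) with negative siRNA and 91384 ± 66413 (SD, n = 3) in the double knockdown. The log2 fold change of -1.15 ± 0.43 SE did not pass, with a limma adjusted p of 0.0575 and a 95% interval of -2.09 to -0.22. The call depended on single libraries: Eln passed without double knockdown replicate 3 (log2 fold change -1.71, limma adjusted p = 0.00186) and without negative siRNA replicate 2 (-1.49, limma adjusted p = 0.0302), while the adjusted p reached 0.213 at most over all alternatives. With Yap siRNA Eln had 134852, 97858 and 114890 normalized counts, and with Wwtr1 siRNA 164259, 103353 and 139225. Both single knockdowns overlapped the negative siRNA libraries, at log2 fold changes of -0.58 ± 0.43 and -0.37 ± 0.43 SE.

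Eln also differed by replicate number: replicate 1 was the highest and replicate 2 the lowest library in each of the negative, Yap and Wwtr1 siRNA groups. Across all genes, same-numbered libraries of these 3 groups deviated together, which is why the blocked fit was run. Within a replicate number, the Yap siRNA library was below its negative siRNA counterpart in Eln by a log2 difference of -1.003, -0.14 and -0.61. In the blocked limma fit, Eln passed with Yap siRNA (adjusted p = 0.0112), against an adjusted p of 0.268 in the same libraries without the block and 0.498 in all 12 libraries. With Wwtr1 siRNA the differences were -0.72, -0.06 and -0.33, and Eln did not pass (blocked limma adjusted p = 0.0621). The highest adjusted p over the alternatives was 0.815 with Yap siRNA and 0.973 with Wwtr1 siRNA.

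Of the microfibril scaffold genes Fbn1, Fbn2 and Mfap5, only Fbn2 was called against negative siRNA in the fit of all 12 libraries. Fbn1 encodes fibrillin-1, the main microfibril protein after birth. It had 67965, 80749 and 70400 normalized counts under negative siRNA, 65365, 84424 and 78697 under Yap siRNA, 77929, 81419 and 85173 under Wwtr1 siRNA, and 68878, 51209 and 61058 under both. The double knockdown libraries overlapped those of negative siRNA by a single library, with a log2 fold change of -0.28 ± 0.12 SE (adjusted p of 0.103 by limma). They lay below all Wwtr1 siRNA libraries, by a log2 fold change of -0.44 ± 0.12 SE (adjusted p of 0.0267 by limma). That last call was lost without Wwtr1 siRNA replicate 2 or 3 or double knockdown replicate 2, where the limma adjusted p was 0.0746, 0.0910 and 0.0942, and in a fit of those 2 groups alone (limma adjusted p = 0.0529). Against Yap siRNA the log2 fold change of -0.34 (limma adjusted p = 0.0918) passed by DESeq2 (adjusted p = 0.0383) and without Yap siRNA replicate 1 (limma adjusted p = 0.0443). Without double knockdown replicate 1, Fbn1 was called lower against negative siRNA (log2 fold change -0.38, limma adjusted p = 0.0470, with 0.343 the highest value over the alternatives).

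Fbn2, which encodes fibrillin-2, a fibrillin mainly of developing tissue, was the one member called with Wwtr1 siRNA in the fit of all 12 libraries. Negative siRNA libraries had 872, 845 and 707 normalized counts, and Wwtr1 siRNA libraries had 1870, 1846 and 1964, with no overlap. The mean rose from 808 ± 88.5 to 1893 ± 62.5 (SD, n = 3 each), a log2 fold change of 1.23 ± 0.16 SE (adjusted p of 0.00107 by limma), or 2.35-fold. The double knockdown had 1554, 1093 and 1572, a rise of 0.79 ± 0.16 SE on the log2 scale (limma adjusted p of 0.00306). Yap siRNA gave 897, 1327 and 1089, each above the highest negative siRNA library, at a log2 fold change of 0.44 ± 0.16 SE that did not pass (limma adjusted p = 0.152). It passed in the blocked fit (limma adjusted p = 0.0353, against 0.0887 in the same libraries without the block and 0.412 at most). The mean level was thus ordered negative siRNA, Yap siRNA, double knockdown and Wwtr1 siRNA. The step from Yap siRNA to the double knockdown was not called, and their libraries overlapped (0.35 on the log2 scale, 95% interval -0.0029 to 0.70, limma adjusted p = 0.174). Yap siRNA lay below Wwtr1 siRNA by a log2 fold change of -0.79 ± 0.16 SE (adjusted p of 0.0116 by limma, where 8.79% of all genes were called). The neighbours double knockdown and Wwtr1 siRNA did not differ by the test although their libraries did not overlap (-0.45 on the log2 scale, 95% interval -0.80 to -0.10, limma adjusted p = 0.0693), but DESeq2 on the recovered reads called the difference (adjusted p = 0.0457). The interaction subtracts both single knockdown effects, added on the log2 scale, from the double knockdown effect. For Fbn2 it was -0.89 ± 0.23 SE (adjusted p of 0.0883 by limma). DESeq2 on the recovered reads called it (-0.88, adjusted p = 0.0103), and the adjusted p over all alternatives reached 0.176.

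Mfap5, also known as MAGP-2, binds fibrillin microfibrils. It was sparse and variable, with 472, 317 and 393 normalized counts under negative siRNA and 219, 299 and 522 in the double knockdown. The third double knockdown library was the highest of all 12, and the other two were lower than every negative siRNA library. Yap siRNA libraries spanned 192 to 462 and Wwtr1 siRNA libraries 309 to 344. No comparison called Mfap5, and the 95% interval of the double knockdown change, -0.98 to 0.46 on the log2 scale, left room for changes in both directions.

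Fbln5 and Efemp2 encode fibulin-5 and fibulin-4, which bring tropoelastin and lysyl oxidases together on microfibrils and are both needed to build elastic fibres. Fbln5 had 9123, 6978 and 9780 normalized counts under negative siRNA, 6338, 5056 and 6457 under Yap siRNA, 7036, 6861 and 7876 under Wwtr1 siRNA, and 4114, 3559 and 5772 under both. Every double knockdown library was below every negative siRNA and Wwtr1 siRNA library. The mean fell from 8627 ± 1465 to 4482 ± 1152 (SD, n = 3 each), a log2 fold change of -0.96 ± 0.17 SE (adjusted p of 0.00141 by limma), or 1.95-fold lower. The double knockdown was also lower than Wwtr1 siRNA by -0.72 ± 0.17 SE on the log2 scale (limma adjusted p of 0.0129, where 19.9% of all genes were called), a call lost without Wwtr1 siRNA replicate 3 (limma adjusted p = 0.0552). Yap siRNA libraries lay below all negative siRNA libraries at -0.53 ± 0.17 SE without passing (limma adjusted p = 0.112). Within replicate numbers the differences were alike, at -0.53, -0.46 and -0.60, and the blocked fit called Fbln5 in Yap siRNA (limma adjusted p = 0.000650, against 0.336 at most over the alternatives). Fbln5 also passed there in the same libraries without the block (limma adjusted p = 0.0448), with the block over all 12 libraries (limma adjusted p = 0.0124), without double knockdown replicate 3 (limma adjusted p = 0.0358) and by DESeq2 (adjusted p = 0.0314). The blocked fit also called the smaller Wwtr1 siRNA difference of -0.24 (limma adjusted p = 0.0338, against 0.286 in the same libraries without the block and 0.744 at most).

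Efemp2 passed no test, and its 12 values spanned 10599 to 12667 normalized counts, with group means of 11844 ± 420 for negative siRNA, 11864 ± 797 for Yap siRNA, 12400 ± 164 for Wwtr1 siRNA and 11119 ± 455 for the double knockdown (SD, n = 3 each). All Wwtr1 siRNA libraries lay above all negative siRNA and all double knockdown libraries, with log2 differences of 0.07 from negative siRNA and -0.16 for the double knockdown against Wwtr1 siRNA (limma adjusted p = 0.575 and 0.102). The double knockdown change against negative siRNA was -0.09 on the log2 scale with a 95% interval of -0.23 to 0.05, so a change of the size seen in Fbln5 lay outside the interval.

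The other fibulins, Fbln1 (fibulin-1, found in elastic fibres and basement membranes) and Efemp1 (fibulin-3), showed the widest rises. Fbln1 had 3397, 3845 and 1509 normalized counts with negative siRNA and 9939, 9309 and 33023 in the double knockdown. All 3 double knockdown libraries were above every other library of the series, and replicate 3 stood far above replicates 1 and 2. The log2 fold change against negative siRNA was 2.42 ± 0.49 SE (adjusted p of 0.00282 by limma), or 5.37-fold, and 1.83 without replicate 3 (limma adjusted p = 0.00435). Wwtr1 siRNA libraries, at 2728, 2331 and 1744, overlapped negative siRNA and lay below the double knockdown by 2.70 ± 0.49 SE (adjusted p of 0.00316 by limma) in the log2 fold change of double knockdown against Wwtr1 siRNA, or 2.11 without replicate 3. Against Yap siRNA the double knockdown was 1.44 higher on the log2 scale (limma adjusted p = 0.0716), which DESeq2 called (adjusted p = 0.0311), and 0.85 higher without replicate 3. Yap siRNA libraries, at 7190, 6548 and 3228, overlapped negative siRNA, and the log2 fold change of 0.98 ± 0.49 SE did not pass (limma adjusted p = 0.293). Replicate 3 was the lowest library of Fbln1 in each of the negative, Yap and Wwtr1 siRNA groups. Within replicate numbers, Yap siRNA exceeded negative siRNA by a log2 difference of 1.08, 0.77 and 1.097, and the blocked fit called it (limma adjusted p = 0.000871, against 0.155 in the same libraries without the block and 0.678 at most). The blocked fit also placed Yap siRNA above Wwtr1 siRNA in Fbln1 (log2 fold change 1.26, limma adjusted p = 0.000203, against 0.0549 in the same libraries without the block and 0.136 in all 12). Fits of these 2 groups alone (limma adjusted p = 0.0339) and without double knockdown replicate 3 (limma adjusted p = 0.0398) called it too.

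Efemp1 was low in control cells and had the largest fold change of the 9 genes in the double knockdown. Negative siRNA libraries had 64.6, 60.0 and 37.2 normalized counts, Yap siRNA libraries 307, 192 and 104, Wwtr1 siRNA libraries 114, 165 and 71.1, and double knockdown libraries 314, 387 and 675. Each siRNA group lay wholly above negative siRNA, and the double knockdown lay wholly above both single knockdowns. The rise was 3.03 ± 0.43 SE on the log2 scale in the double knockdown (limma adjusted p of 0.000305), or 8.15-fold, and 1.78 ± 0.43 SE with Yap siRNA (limma adjusted p of 0.0396), or 3.44-fold. With Wwtr1 siRNA the difference of 1.06 ± 0.43 SE passed only in the blocked fit (limma adjusted p = 0.0134, against 0.137 in the same libraries without the block and 0.410 at most). The Yap siRNA call did not survive 7 of the 12 fits with a library removed, with a limma adjusted p of up to 0.156. Leaving out any negative siRNA library, Yap siRNA replicate 1 or 2, Wwtr1 siRNA replicate 1 or double knockdown replicate 2 each ended it. The step from Wwtr1 siRNA to the double knockdown, 1.97 ± 0.43 SE (adjusted p of 0.00805 by limma), was called, and the step from Yap siRNA, 1.24 ± 0.43 SE (adjusted p of 0.0761 by limma), was not. DESeq2 called the latter (adjusted p = 0.0282), as did limma without Yap siRNA replicate 1 (adjusted p = 0.0372).

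Promoter sequences of RefSeq, from 250 bases before to 50 bases after the gene start on build GRCr8, matched 6 of the 9 genes by symbol. Eln, Fbln1 and Emilin1 were not among them. They were searched on both strands for the TEAD motif GGAATG, the AP-1 motif TGANTCA and the interferon-response core, which is GAAA, any 2 bases and GAAA, and these were found in 14.2%, 7.33% and 3.92% of all 33469 promoters. Among the 10144 promoters of genes measured here, the shares were 11.2%, 5.06% and 2.94%. These motifs do not overlap in the matches found. The TEAD letters occurred once each in Fbln5 and Fbn2, the AP-1 letters once in Efemp1, and the interferon-response core in none of the 6. In Fbn1, Efemp2 and Mfap5 none of these letters was in the window. The promoters of Fbln5, which fell in the double knockdown, and Efemp1, which rose in it, are shown because they carry a match and lie in members that moved in opposite directions. Fbn2, whose TEAD match starts 26 bases before the gene start, rose in the double knockdown and is not shown. The TEAD letters thus lay in a member that fell and in a member that rose. Capitals mark the match, and CATTCC is GGAATG read on the other strand. A match describes letters only.
Fbln5, GRCr8 chr6:126742657-126742956, minus strand, match starting 15 bases after the gene start: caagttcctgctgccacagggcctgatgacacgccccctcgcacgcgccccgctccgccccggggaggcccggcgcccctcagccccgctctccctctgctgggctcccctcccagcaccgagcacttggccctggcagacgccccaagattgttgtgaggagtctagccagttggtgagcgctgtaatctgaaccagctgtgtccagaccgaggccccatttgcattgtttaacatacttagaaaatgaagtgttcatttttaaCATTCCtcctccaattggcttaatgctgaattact
Efemp1, GRCr8 chr14:106811614-106811913, plus strand, match starting 215 bases before the gene start: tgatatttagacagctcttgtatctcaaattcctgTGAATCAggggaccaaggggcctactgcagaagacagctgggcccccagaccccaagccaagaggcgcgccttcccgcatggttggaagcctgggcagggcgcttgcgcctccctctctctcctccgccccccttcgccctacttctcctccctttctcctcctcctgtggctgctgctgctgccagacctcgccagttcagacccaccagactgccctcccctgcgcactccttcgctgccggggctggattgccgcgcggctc

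Emilin1 encodes a glycoprotein found where elastin meets microfibrils, and in the double knockdown it had the lowest adjusted p of the 9 genes. Negative siRNA libraries had 10615, 11497 and 9558 normalized counts, Yap siRNA libraries 12298, 12335 and 12279, Wwtr1 siRNA libraries 10689, 9579 and 10338, and double knockdown libraries 19921, 18705 and 16719. Every double knockdown library was above all 9 others. The mean rose from 10557 ± 971 to 18448 ± 1616 (SD, n = 3 each), a log2 fold change of 0.81 ± 0.08 SE (adjusted p of 4.40e-05 by limma), or 1.75-fold. The double knockdown was also higher than Yap siRNA, by 0.58 ± 0.08 SE (adjusted p of 0.00122 by limma, where 13.8% of all genes were called), and than Wwtr1 siRNA, by 0.85 ± 0.08 SE (adjusted p of 0.000106 by limma). Wwtr1 siRNA and negative siRNA did not differ by the test, with a 95% interval of -0.23 to 0.13 on the log2 scale. Yap siRNA libraries lay narrowly above negative siRNA (0.23 ± 0.08 SE, adjusted p of 0.154 by limma), and the blocked fit called that difference at a limma adjusted p of 0.0489, against 0.114 in the same libraries without the block and 0.449 at most. Yap siRNA lay above Wwtr1 siRNA by 0.27 on the log2 scale, which did not pass in all 12 libraries (limma adjusted p = 0.0632). It passed without the double knockdown libraries, both unblocked and blocked (limma adjusted p = 0.0451 and 0.0177), in these 2 groups alone (0.0438), without double knockdown replicate 3 (0.0353) and by DESeq2 (adjusted p = 0.0232).

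A second question was whether the double knockdown departed from the sum of the single effects. Both targets were less depleted in the double knockdown than in the single knockdowns, so every interaction here compares unequal depletions. Wwtr1 was 1.51-fold its level under Wwtr1 siRNA (limma adjusted p = 0.00804). Yap1 was 1.59-fold its level under Yap siRNA, which was not called (limma adjusted p = 0.0623). The part of this in the interactions was not tested. Emilin1 was the only member whose interaction passed, among 1.03% of all genes. Its double knockdown effect exceeded the sum of the single effects by 0.63 ± 0.12 SE on the log2 scale (limma adjusted p of 0.0311, 95% interval 0.37 to 0.88). The size held, between 0.56 and 0.70, when any library was left out, but the call was lost in 10 of those 12 fits and held only without negative siRNA replicate 3 or double knockdown replicate 3, and it was also lost without the mean-variance trend (limma adjusted p = 0.0753). The Fbln1 interaction of 1.72 ± 0.69 SE (adjusted p of 0.279 by limma) and the Fbn1 interaction of -0.50 ± 0.17 SE (adjusted p of 0.218 by limma) did not pass. For Efemp1 and Eln the interaction was 0.19 ± 0.61 and -0.20 ± 0.61 SE, and its sign changed with the library left out.

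**Figure D3:**
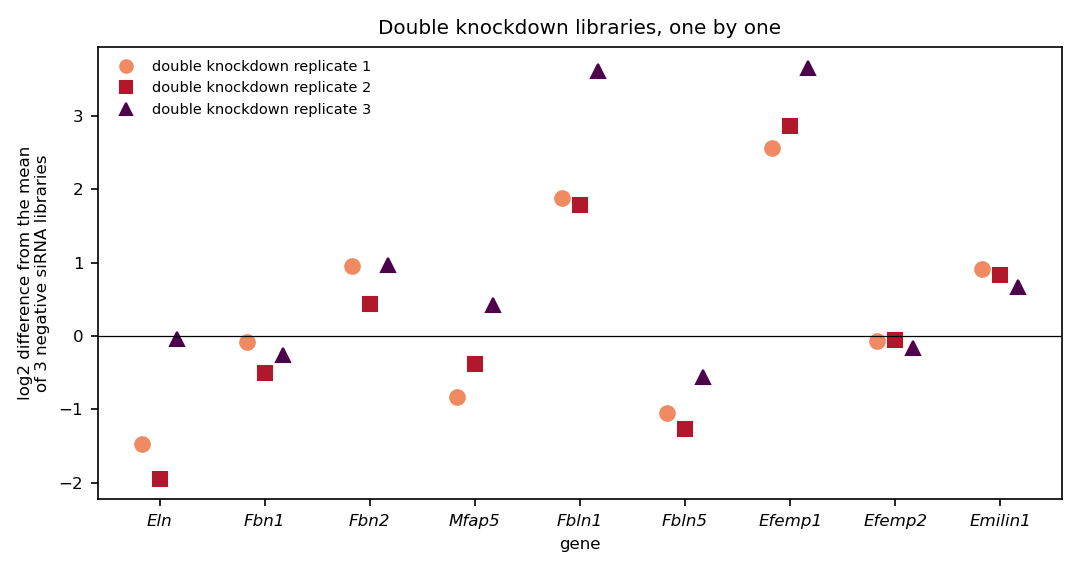
Log2(normalized count + 1) of each double knockdown library minus the mean of the 3 negative siRNA libraries (vertical axis) for each gene. Emilin1 lies between 0.67 and 0.92 in the 3 libraries, whereas replicate 3 (triangles) lies apart in Eln at -0.04, against -1.48 and -1.94, and in Fbln1 at 3.61, against 1.88 and 1.78.

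The libraries of the double knockdown differed most among themselves in Fbln1, Eln and Mfap5, whose coefficients of variation were 77.6%, 72.7% and 45.4%. Replicate 3 was the highest of its group in Eln, Fbn2, Mfap5, Fbln1, Fbln5 and Efemp1 and the lowest in Efemp2 and Emilin1. All 5 double knockdown calls against negative siRNA held without it, at log2 fold changes of 2.71 for Efemp1, 1.83 for Fbln1, 0.87 for Emilin1, 0.69 for Fbn2 and -1.16 for Fbln5. Without it, Eln was also called lower than with Yap siRNA (-1.13, limma adjusted p = 0.0347) and with Wwtr1 siRNA (-1.34, limma adjusted p = 0.0145), and Fbln5 was called lower than with Yap siRNA (-0.63, limma adjusted p = 0.0155, against -0.43 and 0.120 with it). With it the Eln differences were -0.57 and -0.78 and did not pass (limma adjusted p = 0.413 and 0.223). With replicate 3 kept, the replicate block over all libraries also called Fbln5 lower than with Yap siRNA (limma adjusted p = 0.0151).

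Across the 12 libraries, Pearson's r of the log2 values was 0.87 between Fbln5 and Eln, 0.88 between Efemp1 and Fbln1 and 0.83 between Emilin1 and Fbln1, and it was -0.87 between Emilin1 and Fbln5. The genes whose levels were most like those of Eln, out of 10101 others averaging 100 or more normalized counts, were Aldh1a2 (r = 0.91), Man1a1 (0.90) and Elmo2 (0.90). Aldh1a2, an enzyme of retinoic acid synthesis, had group means of 1937 with negative siRNA and 1077 in the double knockdown. For Fbn1 they were Mfhas1 (r = 0.94), Hs6st2 (0.92) and Bnip2 (0.91), and for Fbln5 they were Prr5 (0.97), Cnbp (0.96) and Tra2b (0.96). These values describe 12 libraries (n = 12) that fall into the same 4 groups and are not tests.

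The genes that act with elastic fibres were then counted from lists. Of 10 other elastic fibre and microfibril genes in the table, 5 passed in the double knockdown, where 32.8% of all genes did: Mfap2, Mmrn2 and Ltbp3 rose, and Ltbp2 and Ltbp4 fell. Ltbp2, Ltbp3 and Ltbp4 all belong to the latent TGF-beta binding protein family. The list median was -0.08 on the log2 scale, beside 0.0035 over all genes, and limma called none in either single knockdown (5 had an unadjusted p under 0.05 with Yap siRNA and 0 with Wwtr1 siRNA, edgeR called 0 in both, and DESeq2 called 2 and 0). The blocked fit called 4 with Yap siRNA (16.0% of all genes) and 5 with Wwtr1 siRNA (21.3%), against 3 and 1 in the same libraries without the block. Without negative siRNA replicate 3, 3 were called in the double knockdown, and without double knockdown replicate 3 limma called 3 with Yap siRNA and 1 with Wwtr1 siRNA (2 with Yap siRNA without double knockdown replicate 1). Mfap2, the microfibril-associated glycoprotein MAGP-1, had 108, 130 and 107 normalized counts with negative siRNA and 222, 430 and 1138 in the double knockdown, a log2 fold change of 2.05 ± 0.43 SE (adjusted p of 0.00346 by limma) that was 1.42 without replicate 3. Ltbp2, a microfibril-bound protein that interacts with fibulin-5, had 30457, 33108 and 40797 with negative siRNA and 21520, 22643 and 10277 in the double knockdown (-1.01 ± 0.28 SE, adjusted p of 0.0156 by limma). The change was -0.65 without double knockdown replicate 3, and it was not called without negative siRNA replicate 3 (limma adjusted p = 0.0638). Mmrn2, an EMILIN family member of endothelial cells, had 26.7, 8.996 and 21.7 with negative siRNA and 53.7, 41.8 and 69.3 in the double knockdown (1.57 ± 0.52 SE, adjusted p of 0.0369 by limma). Its call was lost without negative siRNA replicate 2 or 3 or any double knockdown library, where the limma adjusted p ran up to 0.134, and in a fit of the 2 groups alone (limma adjusted p = 0.0527). Of the 10 endothelial markers, 5 were called higher in the double knockdown (3 without replicate 3), where they summed to 1908, 1815 and 2718 normalized counts, against 1225 to 1573 with negative siRNA, and their part in the Mmrn2 value was not tested. The endothelial markers Emcn and Cldn5 were listed at 0 in at least 1 library.

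The crosslinking and assembly genes were mostly called in the double knockdown, but in both directions. Of 12 in the table, 9 passed, beside 32.8% of all genes: Adamts6, Loxl4, Loxl3 and Fkbp10 rose and Loxl1, Lox, Adamtsl3, Adamtsl5 and Adamts10 fell, with a list median of -0.07 (-0.04 without double knockdown replicate 3). Lox encodes lysyl oxidase, which crosslinks elastin and collagen. It had 7258, 8584 and 8456 normalized counts with negative siRNA and 4125, 3621 and 5803 in the double knockdown, a log2 fold change of -0.87 ± 0.15 SE (adjusted p of 0.00126 by limma). Loxl1, the lysyl oxidase relative most tied to elastic fibre upkeep, had 33955, 29937 and 30720 with negative siRNA and 21828, 20832 and 21450 in the double knockdown (-0.56 ± 0.07 SE, adjusted p of 0.000196 by limma). In both genes the double knockdown libraries were all below the negative siRNA libraries. Adamtsl3, an ADAMTS-like matrix protein, had the largest fall, with 4775, 4145 and 2257 against 1425, 1350 and 1421 (-1.34 ± 0.23 SE, adjusted p of 0.000935 by limma). Yap siRNA called 1 gene of this list, Fkbp10 (4.80% of all genes), and Wwtr1 siRNA called 5 (8.96% of all genes), with Loxl4, Loxl3 and Fkbp10 higher and Adamtsl5 and Adamts10 lower. The Yap siRNA count was 0 without negative siRNA replicate 3 or Yap siRNA replicate 1, and it rose to 2 when negative siRNA replicate 2 or double knockdown replicate 3 was left out. The Wwtr1 siRNA count was 3 without negative siRNA replicate 1, Yap siRNA replicate 2 or any Wwtr1 siRNA library. The blocked fit called 6 with Yap siRNA (16.0% of all genes) and 8 with Wwtr1 siRNA (21.3%), against 2 and 5 in the same libraries without the block.

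Of 10 genes for the elastin receptor and elastin-degrading enzymes, 4 passed in the double knockdown and all 4 rose: Ctsk, Mmp2, Ctsl and Mmp14. Over all genes 32.8% passed and 17.1% were called higher. The list median was 0.29, beside 0.0035 over all genes. Ctsk encodes cathepsin K, a protease that cleaves elastin and collagen. It had 1734, 1807 and 1274 normalized counts with negative siRNA and 2947, 3147 and 3523 in the double knockdown, with no overlap and a log2 fold change of 1.01 ± 0.15 SE (adjusted p of 0.000365 by limma). It was the only gene of the list called with Yap siRNA (4.80% of all genes were), a call lost without negative siRNA replicate 3 or Yap siRNA replicate 1 or 2. None was called by limma with Wwtr1 siRNA (8.96% of all genes were), although 3 had an unadjusted p under 0.05, edgeR called 0 and DESeq2 called 2, and 1 was called without Wwtr1 siRNA replicate 3 or double knockdown replicate 3. The blocked fit called 2 with Yap siRNA, both higher (16.0% of all genes were called), and 6 with Wwtr1 siRNA, 2 of them higher and 4 lower (21.3%), against 1 and 1 in the same libraries without the block. Without double knockdown replicate 3, the library highest in macrophage markers, 6 genes of the list were called, with the same 4 higher and Ctss and Mmp12 lower, and the list median was 0.18.

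**Figure D4:**
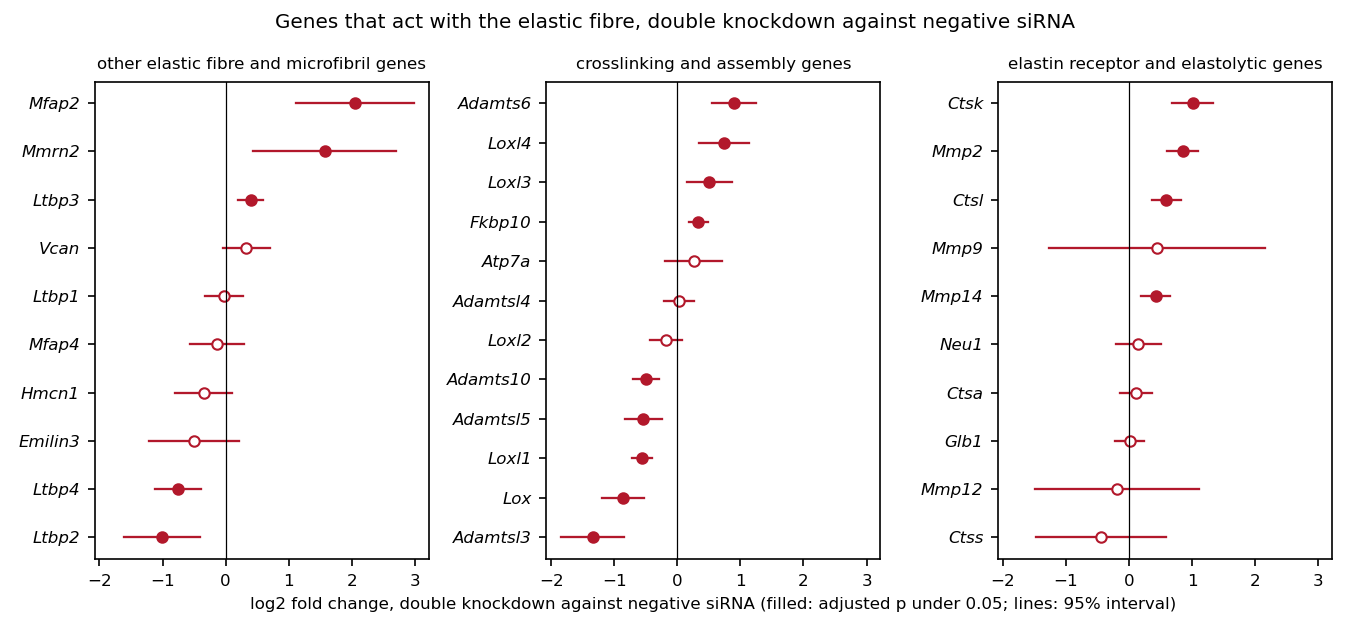
Log2 fold change (horizontal axis) in the double knockdown against negative siRNA for 3 lists of genes that act with elastic fibres, with 95% intervals. Filled symbols mark an adjusted p under 0.05. The crosslinking list has 4 filled symbols to the right of 0 and 5 to the left, and the receptor and elastolytic list has 4, all to the right.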

How the data were processed

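RNA was sequenced from 12 libraries of cultured neonatal rat cardiac fibroblasts, and the study states that the 3 replicates of a group came from separate litters. The authors trimmed reads with Trim Galore 0.6.5, aligned them to rn6 with HISAT2 and assembled transcripts with StringTie, and used DESeq2 for their tests. Each deposited signal value is a count divided by the size factor of its library. Each of the 147252 values was a whole multiple of its library's step within a tolerance of 0.01 step, which gave recovered reads; whether a unit is a read or a mate is not given in the sources used here, and the totals exceed the sequencing depth that the study states. The authors also deposited fold changes and p-values of their own comparisons, which were not used.

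limma 3.58.1 (R 4.3.3; lmFit, contrasts, eBayes with trend) was fitted to log2(normalized count + 1) of all 12 libraries without covariates, over genes with a mean of at least 10, two-sided, with Benjamini-Hochberg adjustment over 11871 genes and a threshold of 0.05. It was also run on simulated counts with the same dispersion for every gene and no difference between litters, unlike these libraries. That run says nothing about the spread in these libraries. Same-numbered libraries of the negative, Yap and Wwtr1 siRNA groups correlated in their deviations from group means at 0.10 to 0.28 (9 pairs), so the numbers were taken to pair these groups. Pairs with the double knockdown ran from -0.13 to 0.18 and were not taken as paired. Among them, the pairs of Wwtr1 siRNA and the double knockdown were at 0.18, 0.07 and 0.09, and whether they share a litter is not known. A fit of these 3 groups with a replicate block was added after seeing the data. Alternatives were pseudocounts of 0.1 and 10, no filter, a mean of at least 100, scaling by TMM or by the upper quartile, DESeq2 1.42.0 or edgeR 4.0.16 run on recovered reads, no trend, fewer groups, the block over all libraries, and each library left out.

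Members and lists were chosen with earlier results of these data known. Named with values were all members, Yap1, Wwtr1, list genes called in the double knockdown with an absolute log2 fold change over 1, Lox and Loxl1, and the 3 genes most like Eln, Fbn1 and Fbln5. Levels are not compared between genes, since values are not per length. Symbols matched RefSeq names of GRCr8 for 96.7% of genes, and gene coordinates were not taken from it because the files use rn6; promoters are RefSeq's on GRCr8. Whether counting used strand is not given in the sources used here. Protein sequences were not used here.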

Additional observations from a re-analysis of the deposited data

Results flagged for a closer look

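The Emilin1 interaction was picked out because the effect of Wwtr1 siRNA on this gene differed with the presence of Yap siRNA by a test of the difference itself (0.63 on the log2 scale, limma adjusted p = 0.0311). Emilin1 in the double knockdown had 19921, 18705 and 16719 normalized counts, against 12298, 12335 and 12279 with Yap siRNA and 10689, 9579 and 10338 with Wwtr1 siRNA. The direction was the same in all 12 fits that left out a library with a limma adjusted p between 0.0161 and 0.0929. The cause was not tested.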

How the results depend on the processing

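All 5 calls of the double knockdown against negative siRNA (Efemp1, Fbln1, Emilin1, Fbn2 and Fbln5) held under every alternative run, and so did Fbn2 with Wwtr1 siRNA; other scalings moved the median of all genes by less than 0.1 on the log2 scale. The counts of members called were less firm elsewhere. Unless stated, they stand without the share of all genes called in the same fit. A changed count is therefore not a result about the members alone. With Yap siRNA against negative siRNA, 1 became 2 by DESeq2, 0 without the trend, 2 with the replicate block over all libraries, 2 without the double knockdown libraries and 6 with both the block and these libraries left out. With Wwtr1 siRNA, 1 became 3 in that last fit. Yap against Wwtr1 siRNA went from 1 to 2 by DESeq2, 3 with only its own groups, 2 without the double knockdown and 4 with the block as well. Double knockdown against Yap siRNA went from 1 to 4 by DESeq2 and 2 with the replicate block, and the interaction from 1 to 2 by DESeq2 and 0 without the trend. The replicate block over all libraries also called Eln lower in the double knockdown (limma adjusted p = 0.0223). Whether the replicate numbers pair the double knockdown with the other groups is not known. Over all genes tested, the block without the double knockdown called 1904 genes with Yap siRNA, against 675 in the same libraries without the block and 570 in all 12, and 6 members, against 2 and 1. Leaving out each library gave 0 to 2 members called under Yap siRNA, 1 to 1 under Wwtr1 siRNA, 5 to 6 in the double knockdown, 1 to 3 for Yap against Wwtr1 siRNA, 1 to 3 for double knockdown against Yap siRNA, 3 to 6 against Wwtr1 siRNA and 0 to 1 for the interaction. The cause of these changes was not tested.

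Signs turned only in differences that were not called. Efemp2 with Yap siRNA was -0.0061 under TMM, -0.021 under upper-quartile scaling and -0.0041 by edgeR. Mfap5 was 0.017 and 0.022 for Yap against Wwtr1 siRNA by edgeR and DESeq2, and for double knockdown against Wwtr1 siRNA 0.00084 with a pseudocount of 10, 0.084 by edgeR and 0.093 by DESeq2. The Eln interaction was 0.098 by edgeR and 0.10 by DESeq2. With 1 library left out, log2 differences crossed 0 for Fbn1 with Yap siRNA (-0.022 to 0.16) and for Yap against Wwtr1 siRNA (-0.18 to 0.0010), Emilin1 with Wwtr1 siRNA (-0.12 to 0.017), Efemp2 with Yap siRNA (-0.048 to 0.050), and in the interaction for Eln (-0.75 to 0.20), Efemp1 (-0.22 to 0.56) and Mfap5 (-0.021 to 0.61). Mfap5 also ran from -0.61 to 0.020 with Yap siRNA, -0.60 to 0.022 in the double knockdown, -0.35 to 0.28 for Yap against Wwtr1 siRNA, -0.28 to 0.35 for double knockdown against Yap siRNA and -0.34 to 0.28 against Wwtr1 siRNA. With 3 libraries a group, p-values rest on the spread between litters, or in the fits with a block on the spread left after replicate number. What depth limits was not tested; it bears most on low genes such as Efemp1, at 37.2 to 64.6 normalized counts with negative siRNA.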
